A study of Mus musculus with 4 samples.

Results

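Signalling by many cytokines runs through Janus kinases, the tyrosine kinases bound to the inner side of cytokine receptors, and through STAT proteins, the transcription factors that these kinases phosphorylate. The RNA of 9 such genes was examined in mouse CD4 T cells, out of 52636 genes in the count table. They were chosen by name, with earlier results of these data known. The 6 STAT genes were Stat2, Stat3, Stat4, Stat5a, Stat5b and Stat6, and the 3 kinase genes were Jak1, Jak2 and Jak3. Every one of the 9 was found and passed the filter on low counts. The kinase gene Tyk2 was used for comparison only.

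RNA had been sequenced from 4 libraries: 2 carried the label E4BP4-cKO, a conditional knockout of the transcription factor gene Nfil3 (E4BP4), and 2 the label wild-type. All 4 came from naive CD4 T cells of C57BL/6 spleens, grown for 3 days in a mix that drives them towards T follicular helper (Tfh) cells, which support antibody production by B cells. Added were 10 ng/ml of IL-6, 10 ng/ml of IL-21, 10 µg/ml each of antibodies to IL-4 and to IFN-γ and 20 µg/ml of an antibody to TGF-β. Not given in the sources used here were the Cre driver, the deleted exon and the age of the mice. Whether libraries of a group stem from separate mice was also not stated, though sex-linked RNA, given below, differed within each group. The p-values therefore measure only how these libraries scatter.

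Libraries held between 19057077 and 26579592 counts. The targeted gene went against the labels. In the pair labelled E4BP4-cKO, Nfil3 had 4649 and 3965 counts, against 290 and 377 counts in the pair labelled wild-type. The groups are therefore called cKO-labelled and wild-type-labelled, and a direction here does not stand for an effect of E4BP4 loss. The 10 T cell markers, among them Cd3d, Cd3e, Cd3g, Cd4 and Cd28, were all detected, with a summed level of 4174 and 4609 CPM in the cKO-labelled libraries, against 4899 and 4704 CPM in the wild-type-labelled ones. CPM are counts scaled to library size with TMM factors. Markers of other cells differed between the groups, where 7.68% of all genes tested were called higher and 6.53% lower. Of the myeloid markers, 7 of 10 were higher and 0 lower, with sums of 255 to 379 CPM in the cKO-labelled libraries, against 20.1 to 66.4 CPM in the wild-type-labelled ones. Among mast cell and basophil markers, 5 of 9 were higher and 0 lower (1102 to 1532 CPM, against 89.2 to 391 CPM, with Tpsab1 at 0 in both wild-type-labelled libraries). Of the CD8 and NK markers, 5 of 8 were higher and 0 lower (3286 to 3499 CPM, against 1015 to 1597 CPM, with Ncr1 at 0 in all 4). The higher ones were Gzma, Gzmb, Prf1, Klrk1 and Klrc1, and Gzmb alone had 2702 and 2658 CPM, against 878 and 1349 CPM. Cd8a (log2 fold change 0.76, edgeR adjusted p = 0.236) and Cd8b1 (-0.02, adjusted p = 0.974) were not called. Eomes pointed lower, also without a call (-0.95, adjusted p = 0.152). B cell markers had 0 of 10 higher and 3 lower (53.0 to 115 CPM, against 401 to 407 CPM), and Tfh markers 1 of 8 higher and 2 lower (721 to 744 CPM, against 981 to 989 CPM). Leaving out cKO replicate 1 gave 4 myeloid and 2 mast cell markers higher, and 6 B cell and 4 Tfh markers lower. Leaving out cKO replicate 2 gave 4 myeloid, 3 mast cell and 0 CD8 and NK markers higher, with 2 B cell markers and 1 Tfh marker lower. B cell markers lower numbered 2 without wild-type replicate 1, and 0 Tfh markers were higher in the fits without cKO replicate 2 or either wild-type-labelled library. In these bulk libraries, fewer cells of a type and less RNA per cell cannot be told apart, and the part of these other cells in the results below was not tested. Within each group 1 library was rich in Xist, the RNA that silences an X chromosome in female cells, with 1 and 21517 counts in the cKO-labelled libraries and 28571 and 17 counts in the wild-type-labelled ones. The Y-linked gene Ddx3y had 0 counts in both cKO-labelled libraries, against 0 and 1592 counts in the wild-type-labelled ones, so that cKO replicate 1 was low in both. Libraries of the same group thus differed in sex-linked RNA, so they are not repeats of the same RNA. The number of mice behind each library is not given. The part of this difference in the results was likewise not tested.

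A cytokine that binds its receptor brings a pair of Janus kinases together. The kinases phosphorylate the receptor, STAT proteins dock there through their SH2 domains and are phosphorylated in turn, and STAT dimers then enter the nucleus and bind DNA. In Tfh cells STAT3 carries the signals of IL-6 and IL-21, the cytokines added here, towards the Tfh regulator Bcl6, whereas STAT5, activated by IL-2, opposes Tfh differentiation. STAT4 serves IL-12 in Th1 cells, STAT6 serves IL-4 in Th2 cells, and STAT2 joins Irf9 in the complex that type I interferons activate. Phosphorylation, not RNA level, sets the activity of these proteins, and it was not measured here.

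In mm10, Stat5b (ENSMUSG00000020919, 100780731 to 100850724, minus strand), Stat5a (ENSMUSG00000004043, 100859351 to 100885169, plus strand) and Stat3 (ENSMUSG00000004040, 100885098 to 100939540, minus strand) lie side by side on chromosome 11 within 158810 bases. Stat3 and Stat5a run tail to tail and share 72 bases of exon at their ends, so that reads in this overlap cannot be assigned without knowing the strand. Stat6 (ENSMUSG00000002147, 127642986 to 127660957) and Stat2 (ENSMUSG00000040033, 128270559 to 128292849) are both on the plus strand of chromosome 10, with 609601 bases between them. Stat4 (ENSMUSG00000062939) is on chromosome 1 from 51987148 to 52107189, Jak1 (ENSMUSG00000028530) on chromosome 4 from 101152367 to 101265282, Jak2 (ENSMUSG00000024789) on chromosome 19 from 29251828 to 29313080 and Jak3 (ENSMUSG00000031805) on chromosome 8 from 71676296 to 71690575. Start and end of all 9 were the same in GENCODE M21 on GRCm38, where their exons, merged over transcripts, numbered between 16 (Stat5a) and 28 (Jak1).

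Stat5a and Stat5b are close paralogs, and part of their coding sequence is identical. The longest run that transcripts of both contain measured 324 bases. It lies inside the coding sequence, from base 904 to 1227 of the Stat5a transcript, whose coding part spans bases 334 to 2712. Its first 150 bases are printed because a read that falls inside the run cannot be assigned to either gene.

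Stat5a and Stat5b shared run (GENCODE M21 transcripts, chromosome 11): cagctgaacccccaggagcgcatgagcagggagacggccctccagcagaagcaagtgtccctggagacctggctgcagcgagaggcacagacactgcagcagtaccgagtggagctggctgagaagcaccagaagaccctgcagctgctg

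Of all stretches of 50 bases in Stat5a transcripts, 8.52% also occurred in transcripts of another gene (631 stretches, 608 of them in Stat5b), and for Stat5b 10.98% (608, all in Stat5a). How such reads were counted was not stated, so the split of counts between Stat5a and Stat5b is uncertain. The share was 21.7% for Stat4, through an overlapping model, Gm28177, which itself held between 1 and 6 counts per library. For Jak3 it was 7.21%, mainly through exons shared with Insl3, which had between 294 and 494 counts. It was at most 0.788% for the other 5 genes.

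Promoter windows were compared for the letters that STAT proteins and E4BP4 are known to bind. RefSeq windows on GRCm38.p6, reaching from 250 bases before a start site to 50 after it, were matched for 9 of 9 genes (12 windows). On both strands, they were searched for TTCNNNGAA (the GAS element of most STAT dimers), its wider form with TTC and GAA 4 bases apart, which STAT6 prefers, TTANNTAA (the core of the D-box that E4BP4 binds) and GAAA repeated after any 2 bases (the core of the interferon-stimulated response element of the STAT2 complex). Among 32851 windows of the same length these occurred in 8.30%, 6.95%, 6.00% and 3.44%. Neither TTCNNNGAA nor TTANNTAA occurred in any of the 12 windows, which says only that these letters are not in this stretch. Stat2 held 1 match to the response element and 1 to the wider form, which do not overlap, and 1 of the 2 windows of Stat4 held a response element. The Stat2 window is shown for its matches, in capitals, and those of Stat3 and Jak2, without a match, because these 2 genes had the lowest p-values among the 9.

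Stat2 promoter, chr10:128270248-128270547, plus strand: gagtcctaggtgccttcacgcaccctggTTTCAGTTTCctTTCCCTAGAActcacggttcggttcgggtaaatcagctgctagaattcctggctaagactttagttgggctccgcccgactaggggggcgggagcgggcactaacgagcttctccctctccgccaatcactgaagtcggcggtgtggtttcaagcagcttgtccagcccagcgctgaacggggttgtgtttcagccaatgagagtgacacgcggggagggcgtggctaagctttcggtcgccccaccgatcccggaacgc

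Stat3 promoter, chr11:100939491-100939790, minus strand: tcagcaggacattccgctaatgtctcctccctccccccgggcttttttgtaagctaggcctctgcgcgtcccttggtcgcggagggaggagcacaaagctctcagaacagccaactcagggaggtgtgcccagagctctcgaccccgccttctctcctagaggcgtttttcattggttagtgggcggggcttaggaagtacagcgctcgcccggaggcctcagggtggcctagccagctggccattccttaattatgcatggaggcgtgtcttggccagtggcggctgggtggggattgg

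Jak2 promoter, chr19:29251553-29251852, plus strand: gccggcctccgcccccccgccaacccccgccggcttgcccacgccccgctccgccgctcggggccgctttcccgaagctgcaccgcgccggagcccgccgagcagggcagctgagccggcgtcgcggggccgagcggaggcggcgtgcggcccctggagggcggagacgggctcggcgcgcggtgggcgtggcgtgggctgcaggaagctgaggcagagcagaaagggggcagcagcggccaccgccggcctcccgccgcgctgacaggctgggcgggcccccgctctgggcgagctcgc

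The first base of the response element in Stat2 lies at -222 and that of the wider form at -210, where the base before the start site is -1. In the windows shown, GC content was 59.3% for Stat2, 60.7% for Stat3 and 81.0% for Jak2.

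The question of the comparison was which of these genes differ in RNA level between the groups. Stat3 rose in the cKO-labelled libraries, by 1.72-fold, and was the only one of the 9 genes called. Jak2 had the largest difference in the other direction and missed the threshold. Stat2 and Stat5b had higher means with wide intervals, while Stat4, Stat6, Stat5a, Jak1 and Jak3 differed by 0.22 or less on the log2 scale. Genes were called with edgeR's quasi-likelihood test at a Benjamini-Hochberg adjusted p under 0.05 over all 15503 genes tested, of which 14.2% were called, 7.68% as higher and 6.53% as lower. With 1 of 9 called higher and 0 of 9 lower, the share among these genes stood near the background. The median log2 fold change was 0.21 for the 9 genes and 0.02 for all genes tested. At an unadjusted p under 0.05, 1 of the 9 was lower (Jak2), and DESeq2 and limma-voom each called 1 lower.

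**Figure D1:**
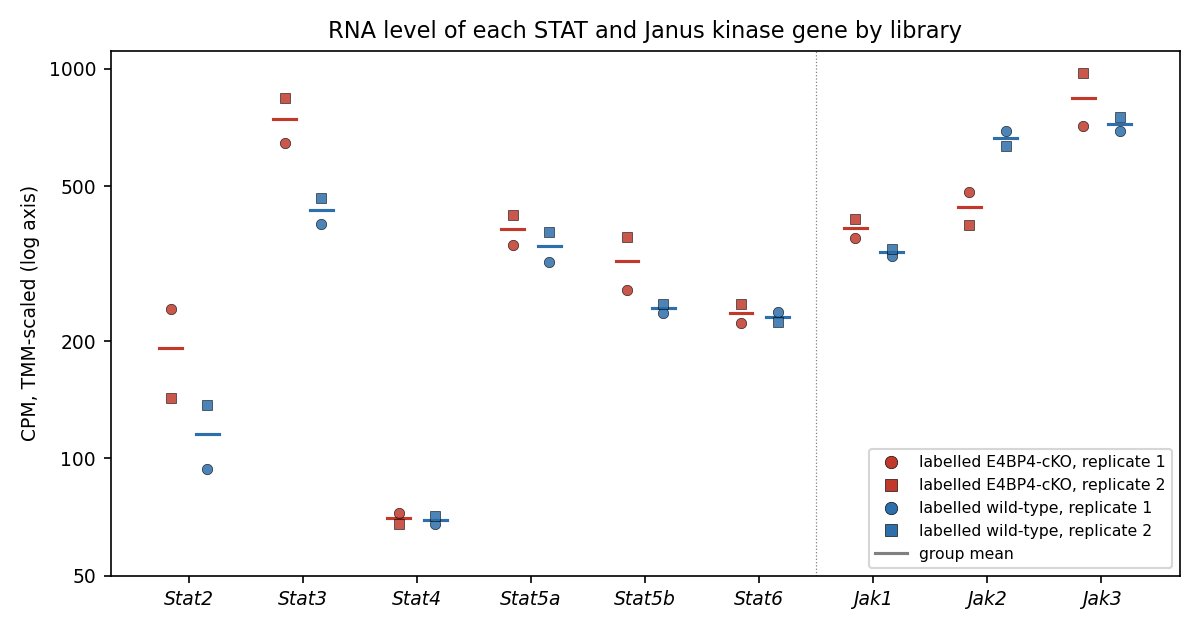
TMM-scaled CPM (log axis) of the 9 genes in each library, with E4BP4-cKO in red and wild-type in blue; circles are replicate 1, squares replicate 2 and bars the group means. The groups do not overlap for Stat3 (645 and 845, against 400.1 and 468) and Jak2 (484 and 398, against 695 and 633), while the Stat4 values all lie between 67.7 and 72.6.

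Stat3, which relays IL-6 and IL-21, had 645 and 845 CPM in the cKO-labelled libraries, against 400.1 and 468 CPM in the wild-type-labelled ones. Both cKO-labelled libraries lay above both wild-type-labelled ones. The means were 745 ± 141 CPM and 434 ± 47.6 CPM (SD, n = 2 each). On the log2 scale the difference was 0.78 (SE 0.18, edgeR adjusted p = 0.0476), with a 95% interval of 1.25- to 2.35-fold. This call sat at the threshold. Leaving out cKO replicate 2 ended it (log2 fold change 0.59, adjusted p = 0.117), as did leaving out wild-type replicate 1 (0.67, adjusted p = 0.201) or wild-type replicate 2 (0.89, adjusted p = 0.0791), or using total library size (0.69, adjusted p = 0.0546). The adjusted p ran from 1.98e-05 to 0.201 over 11 alternatives. The log2 fold change was positive in all 11. The called genes of the myeloid, mast cell and CD8 or NK marker lists were higher in the same libraries as Stat3, as given above.

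Stat5a and Stat5b, the targets of IL-2 receptor signalling next to Stat3 on the chromosome, showed smaller differences. Stat5b had 271 and 371 CPM in the cKO-labelled libraries, against 236 and 249.5 CPM in the wild-type-labelled ones. The groups did not overlap, but cKO replicate 2 stood far above replicate 1. Its means were 321 ± 70.7 CPM and 243 ± 9.73 CPM, and its 95% interval ran from 0.972- to 1.80-fold (log2 fold change 0.40, SE 0.18, edgeR adjusted p = 0.168). Stat5a had 353 and 422 CPM, against 319 and 381 CPM. These values overlapped between the groups, and the interval was 0.841- to 1.46-fold (log2 fold change 0.15, SE 0.16, edgeR adjusted p = 0.547). The tested genes next to this cluster were Ghdc, before Stat5b, with a log2 fold change of 0.34 (SE 0.15, edgeR adjusted p = 0.162), and Cavin1, after Stat3, a caveola coat gene with 116 and 53 counts, against 36 and 16 counts (1.71, SE 0.53, adjusted p = 0.0851). No call was made for either neighbour.

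Stat2, the interferon STAT, stood out in 1 library. It had 242 and 143 CPM in the cKO-labelled libraries, against 94.1 and 137 CPM in the wild-type-labelled ones. cKO replicate 1 was far above the other 3, and replicate 2 was close to wild-type replicate 2. The means were 192 ± 70.0 CPM and 115 ± 30.2 CPM, with an interval of 0.989- to 2.80-fold (log2 fold change 0.74, SE 0.30, edgeR adjusted p = 0.145). Without cKO replicate 1 the log2 fold change was 0.30 and without replicate 2 it was 1.08 (adjusted p = 0.455 and 0.0958; over 11 alternatives, 7.80e-06 to 0.455, the lowest without a filter on low counts). Summed over 16 interferon-stimulated genes, the level was 1018 and 453 CPM in the cKO-labelled libraries, against 343 and 487 CPM in the wild-type-labelled ones. cKO replicate 1 held both the highest Stat2 level and the highest sum of these genes, while for the sum cKO replicate 2 lay between the wild-type-labelled libraries.

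Stat6 and Stat4, the STATs of IL-4 and IL-12, differed least. Stat6 had 223 and 249.7 CPM in the cKO-labelled libraries, against 237 and 224 CPM in the wild-type-labelled ones. Its interval ran from 0.836- to 1.26-fold (log2 fold change 0.04, SE 0.12, edgeR adjusted p = 0.858). Stat4 had 72.6 and 68.0 CPM, against 67.7 and 71.2 CPM. All 4 values lay close together, and the interval was 0.850- to 1.20-fold (log2 fold change 0.02, SE 0.10, adjusted p = 0.924). Both intervals leave out a difference as large as the fitted 1.72-fold of Stat3. That of Stat6 reached just past the lower end of the Stat3 interval (1.256- against 1.253-fold). Whether these genes differ from Stat3 was not tested. The sign was negative under scaling to total library size for Stat4 (-0.07) and Stat6 (-0.05), so neither has a direction.

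**Figure D2:**
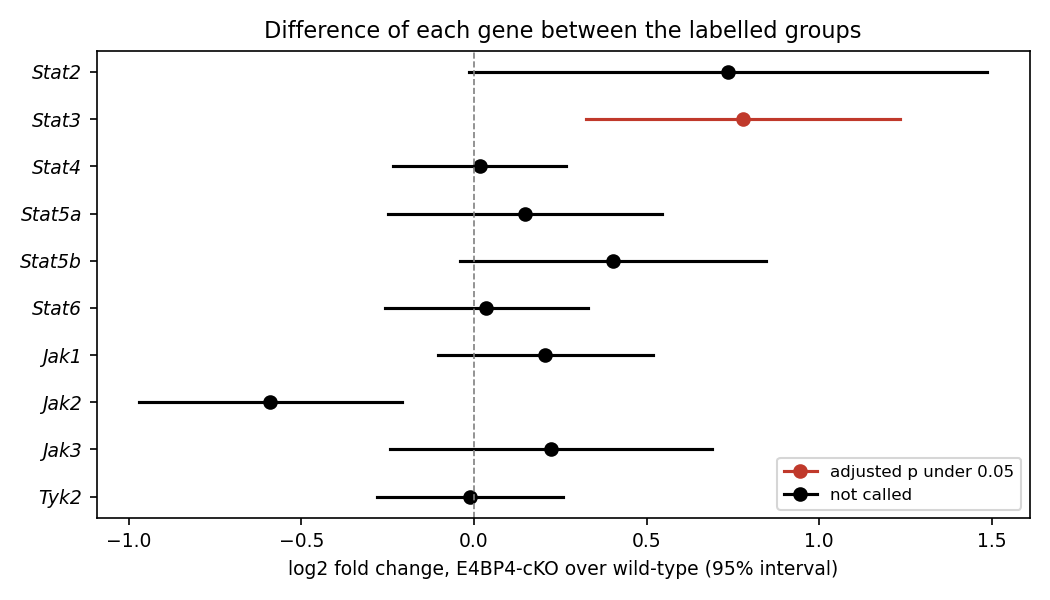
Log2 fold change, E4BP4-cKO over wild-type, with 95% intervals from edgeR for the 9 genes and Tyk2; red marks an adjusted p under 0.05. Stat3 (0.78) is the only gene in red, Jak2 (-0.59) lies wholly below 0, and the other intervals cross 0.

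Jak2 was the kinase gene with the lowest p. This kinase serves gp130, the shared receptor chain of the IL-6 family, and the receptors for IFN-γ, IL-12 and the IL-3 family. It had 484 and 398 CPM in the cKO-labelled libraries, against 695 and 633 CPM in the wild-type-labelled ones, with no overlap. The means were 441 ± 60.9 CPM and 664 ± 43.6 CPM, a fitted fold change of 0.664 with a 95% interval of 0.510 to 0.865. On the log2 scale the difference was -0.59 (SE 0.15, edgeR adjusted p = 0.0574), short of the threshold. Jak2 was called in 6 of 11 alternatives, among them DESeq2 (-0.60, adjusted p = 0.00207), limma-voom (-0.60, adjusted p = 0.0485) and scaling to total library size (-0.67, adjusted p = 0.0414), with adjusted p between 0.00137 and 0.233 and a negative sign in all 11.

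Jak3 and Jak1 work as a pair at receptors with the common gamma chain, among them those for IL-2, IL-4, IL-7 and IL-21. Jak3 had 713 and 974.6 CPM in the cKO-labelled libraries, against 694 and 752 CPM in the wild-type-labelled ones. cKO replicate 2 was high and the rest overlapped (log2 fold change 0.22, SE 0.19, edgeR adjusted p = 0.436, 0.844- to 1.61-fold). Jak1, which also serves gp130 and the interferon receptors, had 369 and 412 CPM, against 332 and 345 CPM. Its groups did not overlap, yet the difference was small (0.21, SE 0.12, adjusted p = 0.287, 0.930- to 1.43-fold). Tyk2, the partner kinase at the IL-12 and type I interferon receptors, had 149 and 135 CPM, against 139.8 and 146 CPM (-0.01, SE 0.11, adjusted p = 0.951). In all, the groups did not overlap for 5 of the 9 genes, 4 higher and 1 lower, while this held for 68.2% of all genes tested, 34.6% higher and 33.6% lower.

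**Figure D3:**
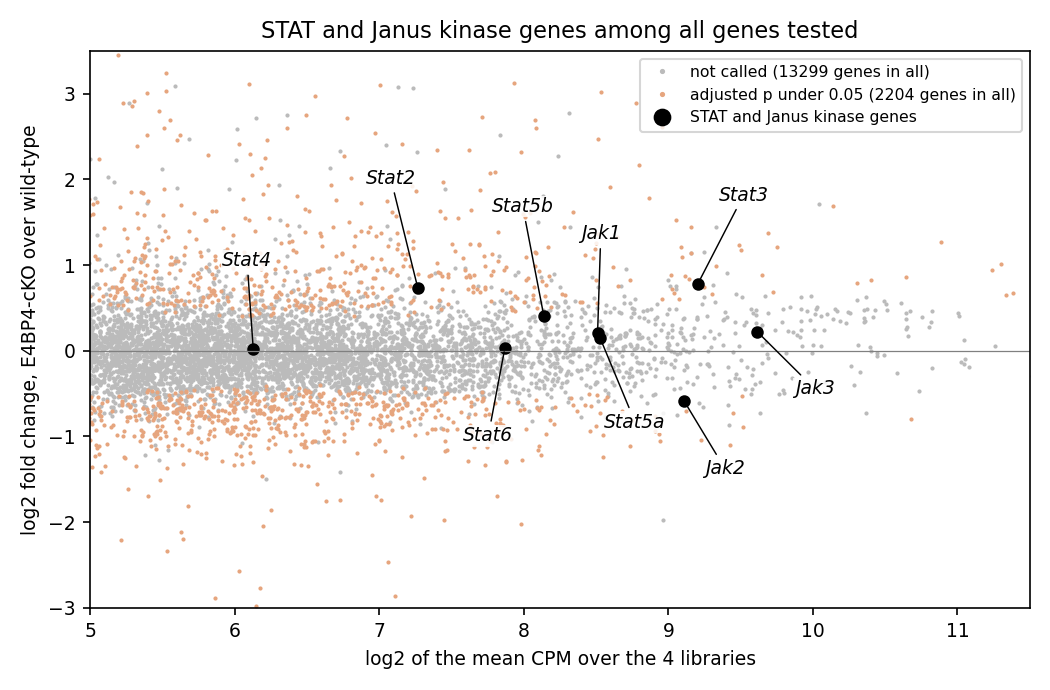
Log2 fold change, E4BP4-cKO over wild-type, against log2 of the mean CPM for the genes tested, drawn for the range around the 9 named genes (black), with genes outside it not drawn; called genes are orange and the rest grey. Stat3 lies at 0.78, Jak2 at -0.59 and Stat4 at 0.02, lowest in mean CPM.

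These genes were abundant, which keeps counting error small. Member counts ran from 1245 (Stat4) to 19175 (Jak3) per library, and the exact 95% counting interval of the lowest was 1177 to 1316. It covers counting error only. By mean CPM, 0.78% of all genes tested stood above Jak3, 1.22% above Stat3, 1.37% above Jak2 and 22.7% above Stat4.

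To compare the genes with each other, CPM were divided by the deposited exon length in kilobases. Jak3 and Jak2 then stood highest and Stat2 and Stat4 lowest in all 4 libraries, except that Stat3 came between Jak3 and Jak2 in cKO replicate 2. Jak3 had 133 and 182 CPM per kb in the cKO-labelled libraries, against 129.7 and 141 CPM per kb in the wild-type-labelled ones, and Jak2 had 96.2 and 79.1, against 138 and 126 CPM per kb. In the cKO-labelled libraries both Jak3 values lay above both Jak2 values, whereas in the wild-type-labelled ones the values of these kinases overlapped. Stat3 had 67.8 and 88.6 CPM per kb, against 42.0 and 49.1 CPM per kb, which made it rank 3 and 2 among the 9 in the cKO-labelled libraries and rank 7 and 5 in the wild-type-labelled ones. Stat5a, Stat5b, Stat6 and Jak1 filled the middle, between 42.6 and 66.9 CPM per kb over all libraries, and their order changed from library to library, so that neighbours there do not differ beyond their spread. At the low end, Stat2 had 40.8 and 24.1, against 15.9 and 23.1 CPM per kb, and Stat4 had 18.7 and 17.6, against 17.5 and 18.4 CPM per kb. The length of Stat4 includes 1033 of 3872 exon bases that Gm28177 shares. How reads there were counted was not stated, so the level of Stat4 per kb may be too low and its order against Stat2 is uncertain. Of the 9 genes, 0 held the same rank in all 4 libraries.

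Ratios within a library do not depend on how libraries are scaled. Per kb, Stat3 stood at 1.37 and 1.497 times Stat5a in the cKO-labelled libraries, against 0.938 and 0.918 times in the wild-type-labelled ones. Per kb, Stat3 was thus the higher of the pair in both cKO-labelled libraries and the lower in both wild-type-labelled ones. This switch rests on the division by length, which covers the exons merged over all transcripts. Without that division the ratio was 1.83 and 2.00, against 1.25 and 1.23, so that Stat3 was the higher in every library. The ratio of Jak2 to Jak1 was 1.89 and 1.39 per kb, against 3.01 and 2.64, and that of Jak2 to Jak3 0.722 and 0.434, against 1.06 and 0.895. Stat5b over Stat5a was 0.987 and 1.13, against 0.951 and 0.843, also without overlap. Jak3 over Jak1 was 2.61 and 3.19, against 2.82 and 2.95, and overlapped between the groups. These ratios were not tested.

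**Figure D4:**
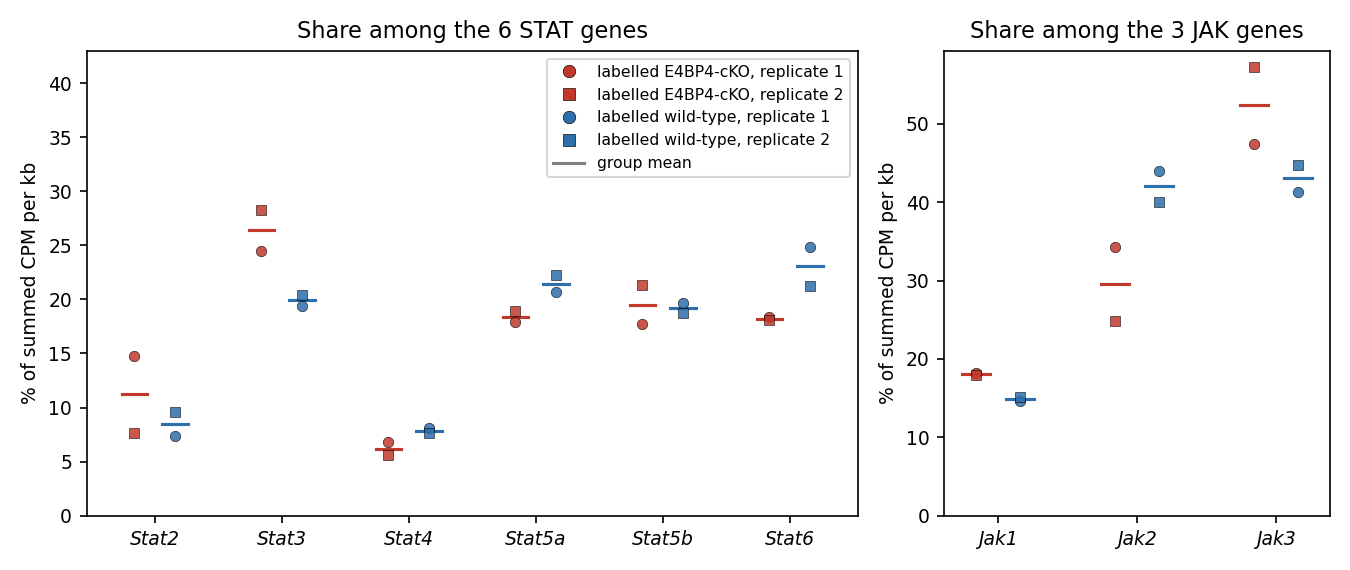
Share of each gene in the summed CPM per kb of the 6 STAT genes (left) and the 3 Janus kinase genes (right) in each library; red is E4BP4-cKO, blue wild-type, bars are group means and both axes start at 0. Stat3 takes 24.5% and 28.3%, against 19.4% and 20.4%, and Jak2 34.3% and 24.9%, against 44.0% and 40.1%.

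As shares of the summed level per kb, Stat3 made up 24.5% and 28.3% of the 6 STAT genes in the cKO-labelled libraries, against 19.4% and 20.4% in the wild-type-labelled ones. Stat6 made up 18.4% and 18.1%, against 24.9% and 21.2%, and was the leading STAT gene per kb in wild-type replicate 1. Its CPM in that library, not divided by length, was 237, against 400.1 for Stat3. Among the 3 kinases, Jak3 held 47.5% and 57.2%, against 41.3% and 44.8%, and Jak2 34.3% and 24.9%, against 44.0% and 40.1%. The shares of 7 of the 9 genes did not overlap between groups, all except Stat2 and Stat5b, where for CPM the groups did not overlap in 68.2% of all genes tested. Shares of a family sum to 100%, so that a higher share of 1 gene lowers the others.

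Among 9415 other tested genes with a mean of at least 10 CPM, Cyp4f13, Fuz and Dnajb2 lay nearest to it over the 4 libraries, at Euclidean distances of 0.0433, 0.0441 and 0.0538 between centred log2 CPM values. Their log2 fold changes were 0.79, 0.74 and 0.77, with edgeR adjusted p of 0.0601, 0.0540 and 0.0540. The choice by likeness fixes that these lie near the value of Stat3.

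The myeloid, mast cell and CD8 or NK markers called above were higher in the same libraries as many genes of the lists that follow. The part of these markers was not tested. Several ligand and receptor genes of the pathway had larger log2 fold changes than any of the 9. Of 14 tested helper T cell cytokine genes that signal through Janus kinases, 7 were higher in the cKO-labelled libraries and 1 lower, with a median log2 fold change of 1.43, against 0.02 over all genes tested. Among all genes tested, 7.68% were called higher and 6.53% lower. Osm, a cytokine of the IL-6 family, had 217 and 256 CPM, against 57.1 and 67.5 CPM (log2 fold change 1.92, SE 0.15, edgeR adjusted p = 0.0141). Lif, of the same family, had a log2 fold change of 1.08 (SE 0.13), Ebi3, a subunit of IL-27 and IL-35, 1.74 (SE 0.24) and Il4, the ligand upstream of STAT6, 2.08 (SE 0.33). Il4 stood at a low level, with 92 and 83 counts, against 19 and 26 counts. The 1 lower gene was Il2, the main ligand upstream of STAT5, with 4.88 and 0.546 CPM, against 28.3 and 37.6 CPM (-3.54, SE 0.80, adjusted p = 0.0465). Without each library in turn, 2 to 6 cytokine genes were higher (2 without cKO replicate 2 and likewise 2 without wild-type replicate 1) and 0 to 2 lower (0 without wild-type replicate 2, 2 without cKO replicate 1).

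Of 23 tested receptor genes, 5 were higher and 1 lower (median log2 fold change 0.50), against 7.68% higher and 6.53% lower of all genes tested. The higher ones were both chains of the IFN-γ receptor, Ifngr1 (1.13, SE 0.24) and Ifngr2 (1.47, SE 0.29), both chains of the IL-12 receptor, Il12rb1 (0.48, SE 0.10) and Il12rb2 (1.19, SE 0.26), and Il7r (1.63, SE 0.38), the IL-7 receptor. Il6ra, the IL-6 receptor chain upstream of STAT3, was the lower one, with 31.3 and 38.2 CPM, against 57.4 and 50.1 CPM (-0.63, SE 0.15, edgeR adjusted p = 0.0490). The receptor for the other added cytokine, Il21r, had 649.8 and 585 CPM, against 569.8 and 673 CPM, overlapping between groups. Of the receptor genes, 0 were higher when cKO replicate 2 was left out and 3 when cKO replicate 1 was, against 1 and 7 in the fits that left out wild-type replicate 1 or 2, and Il6ra was called in 0 of these 4 fits.

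Of 22 inhibitors of the pathway, 2 were higher and 1 lower (median 0.13), shares near the 7.68% and 6.53% of all genes tested. Socs3, which blocks gp130 receptors and is induced by STAT3, had 419.6 and 597 CPM, against 176 and 250.5 CPM (log2 fold change 1.25, SE 0.25, edgeR adjusted p = 0.0372), and the ubiquitin ligase gene Cblb had a log2 fold change of 1.62 (SE 0.31). Socs2, induced by STAT5, fell to 20.6 and 16.3 CPM, against 80.5 and 80.1 CPM (-2.12, SE 0.15, adjusted p = 0.0123), and was called in each of the 4 fits with a library left out. The higher count was 1 when cKO replicate 2 was left out, 0 without wild-type replicate 1 and 3 without replicate 2 of that group.

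Targets were described by lists named after the STAT best known to induce them, which share genes and respond to other factors too. Against 7.68% higher and 6.53% lower of all genes tested, 5 of 15 STAT3 targets were higher and 0 lower (median 0.48). They were the kinase genes Pim1 (1.44, SE 0.24) and Pim2 (1.96, SE 0.18), Il10 (1.67, SE 0.29), Socs3, and Prdm1 (1.83, SE 0.37), which encodes Blimp-1, the antagonist of Bcl6. Bcl6 itself had 15.2 and 13.4 CPM, against 20.7 and 18.9 CPM, without a call (-0.47, SE 0.17, edgeR adjusted p = 0.111), and at an unadjusted p under 0.05 1 of the 15 was lower. In the fit without cKO replicate 1, the calls among STAT3 targets were not all higher. Of 15 STAT5 targets, 5 were higher, Osm, Pim1, the cytotoxic genes Gzmb (1.27, SE 0.23) and Prf1 (2.35, SE 0.46), both also CD8 and NK markers, and the survival gene Bcl2l1 (0.51, SE 0.12), and 2 lower, Socs2 and the lymphotoxin gene Ltb (-1.05, SE 0.14). Il2ra, the high-affinity IL-2 receptor chain, had 2008 and 1777 CPM, against 1087 and 1662 CPM, without a call (0.46, SE 0.23, adjusted p = 0.215). Leaving out 1 library at a time gave 1 to 4 higher STAT3 targets and 1 to 5 higher STAT5 targets, the fewest without cKO replicate 2.

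Of 10 STAT6 targets, 2 were higher, Il4 and Epas1 (2.94, SE 0.39), and 1 lower, the repressor gene Gfi1 (-0.47, SE 0.10; median 0.76), against 7.68% higher and 6.53% lower of all genes tested. The Gfi1 call was lost in each of the 4 fits with a library left out. The higher STAT6 targets numbered 4 without cKO replicate 1 or wild-type replicate 2, and 1 without cKO replicate 2 or wild-type replicate 1. STAT4 targets went both ways, with 3 of 10 higher and 4 lower (median -0.09). The protease gene Furin (2.89, SE 0.21), Il10 and Il12rb2 were higher, and among the lower ones were the IL-18 receptor gene Il18r1 (-2.20, SE 0.26) and the Th1 regulators Hlx (-1.45, SE 0.33) and Tbx21 (-0.80, SE 0.18). Without cKO replicate 2, 1 STAT4 target was higher and 1 lower. Without wild-type replicate 1 these counts were 1 and 2, and with wild-type replicate 2 left out they were 2 and 4.

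Of 16 interferon-stimulated targets of the STAT2 complex, 3 were higher and 0 lower in edgeR (median 1.08), against 7.68% and 6.53% of all genes tested. The higher ones were the antiviral genes Oasl2 (2.45, SE 0.51), Rsad2 (2.82, SE 0.65) and Oas2 (2.51, SE 0.59). At an unadjusted p under 0.05 0 of the 16 were lower. In the fit without cKO replicate 1, however, the calls among these targets were not all higher. DESeq2 called 7 higher and limma-voom 0, with 7 higher by limma-voom at an unadjusted p under 0.05. Oasl2 had 44.1 and 16.2 CPM in the cKO-labelled libraries, against 4.62 and 6.44 CPM in the wild-type-labelled ones, highest in the library with the most Stat2. Irf9, the partner of STAT2, had 133 and 82.6 CPM, against 70.9 and 97.5 CPM, overlapping between groups. The count of 3 was 7 without cKO replicate 2, 1 without cKO replicate 1 and 0 without either wild-type-labelled library.

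**Figure D5:**
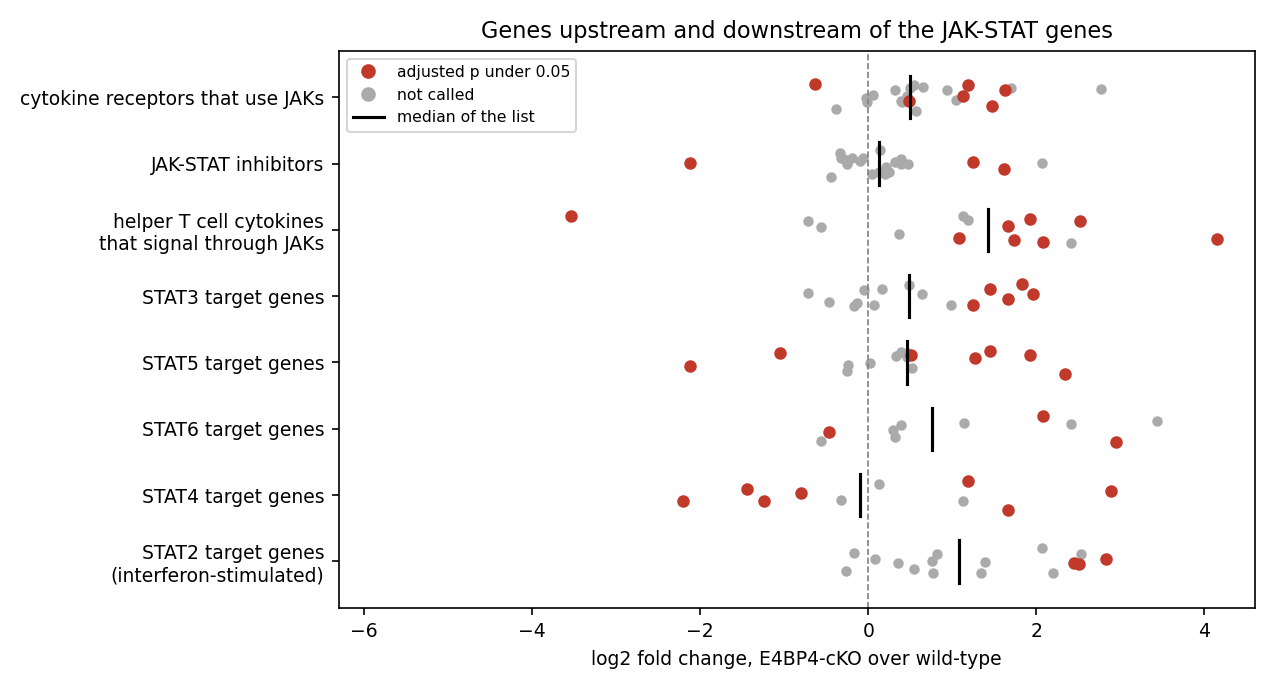
Log2 fold change, E4BP4-cKO over wild-type, of each tested gene in 8 lists of cytokines, receptors, inhibitors and STAT targets; red dots have an adjusted p under 0.05, grey dots do not, black bars are list medians and vertical scatter has no meaning. Cytokines have the highest median (1.43) and STAT4 targets the lowest (-0.09).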

How the data were processed

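The authors deposited 1 table of whole-number counts per gene with gene lengths; per the submitters' processing notes, CASAVA, HISAT2, featureCounts and the mm10 genome were used, with versions, strand and multi-mapping settings left unstated. Samples were grouped by their labels. Of 52636 genes, 28039 had a count and 15503 passed filterByExpr with total depths of 19057077 to 26579592 counts, where 1 count is worth 0.0385 to 0.0546 CPM. Groups were compared with edgeR 4.0.16 (TMM, quasi-likelihood, 2 libraries per group, R 4.3.3) and p-values adjusted by Benjamini-Hochberg over all tested genes. Alternatives were 3 other scalings, no filter, DESeq2 1.42.0, limma-voom (limma 3.58.1), a replicate block and each library left out. The 9 genes and the lists were chosen with earlier results of these data known. From each list, up to 4 called genes of lowest p per direction were named, as was any gene among 5 or fewer; Il21r, Bcl6, Il2ra and Irf9 were named after their values were seen, and the response-element motif was added after seeing the data. The likeness to Stat3 used log2 of CPM plus 0.1. Promoter windows come from RefSeq on GRCm38.p6. Within each group, counts of the 2 libraries differed beyond sampling noise (chi-square per degree of freedom 29.9 for cKO-labelled and 23.5 for wild-type-labelled). Neither pair was therefore treated as repeat sequencing of the same library, and all 4 were kept. For 1 listed symbol with more than 1 row, the row with most counts was used. Some genes that this rule would name are left out here.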

Additional observations from a re-analysis of the deposited data

How the results depend on the processing

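Across 11 alternatives, the log2 fold change kept its sign for Stat2, Stat3, Stat5a, Stat5b, Jak1 and Jak2, and Stat5a, Stat5b and Jak1 were called in 0. Signs turned for values near 0. Under scaling to total library size the log2 fold change was -0.0688 for Stat4 and -0.0505 for Stat6, and with upper-quartile factors it was 0.00711 for Tyk2. Leaving out 1 library at a time gave -0.0344 to 0.0790 for Stat4 (below 0 without cKO replicate 1 or wild-type replicate 1), -0.0310 to 0.112 for Stat6 (below 0 without cKO replicate 2 or wild-type replicate 2), -0.00490 to 0.428 for Jak3 (below 0 without cKO replicate 2) and -0.0868 to 0.0727 for Tyk2 (above 0 without cKO replicate 2 or wild-type replicate 2). Of the 9 genes, total library size called 0 higher and 1 lower, no filter 2 higher and 1 lower, and DESeq2, limma-voom and the replicate block 1 lower each. Over all genes, total library size gave 1636 lower against 1033 higher (38.7% of calls higher, against 54.0% with TMM), no filter 2680 higher and 2237 lower, and DESeq2 1834 and 1676. Without a filter 65 genes of the pathway lists were called, against 34 with it. Leaving out 1 library at a time gave 0 to 1 of the 9 higher and 0 to 1 lower, 246 to 954 higher and 74 to 806 lower over all genes, and 13 to 30 called pathway genes. The fewest over all genes came without cKO replicate 2, and the fewest pathway genes without wild-type replicate 1. The cause was not tested. Replicate numbers are shared between the groups, and the labels do not say whether same-numbered libraries were handled together. Their deviations correlated at 0.0578, which cannot decide this, because other differences between replicates can hide a shared part. With that number as a replicate block, 1375 genes were higher and 1064 lower. In that fit 4 STAT6 targets were higher, and calls such as those of Gfi1 and Il6ra were lost. Counting error of a single value was at most 5.71% for the 9 genes.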
